A study of Mus musculus with 10 samples.

Results

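The proteasome genes of the mouse left ventricle were compared between 5 control mice and 5 mice in which heart failure with preserved ejection fraction (HFpEF) was modelled. Members were the genes whose symbol is Psm, a letter from a to g and a digit, leaving out pseudogenes (-ps), with transcript abundance per length (TPM) above 0 in at least 9 of 10 mice. Of 29564 genes listed, 54 carried such a symbol, 4 of these were pseudogenes, and 49 of the remaining 50 met the TPM rule. The exception was Psmb11, the thymus-restricted catalytic subunit, with 0 counts in every mouse, which allows up to 0.236 CPM (a count scaled to the normalized library of tested genes, not to gene length) in the shallowest library (3 counts of 12.7 M, counting error only). All 49 members passed the filter on low counts and were tested, so none was lost on the way.

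HFD+mTAC mice received moderate transverse aortic constriction at 11 weeks of age and then a diet with 60% of its energy from fat. Control mice had no surgery and ate chow with 10% of its energy from fat. All were wild-type male C57BL6 mice (C57BL/6J in the methods), and the labels name no drug, transgene or deletion. The sample titles name vehicle for the HFD+mTAC mice only. Daily vehicle is stated in the methods as 10 mL/kg for 6 to 9 weeks, for mice of the HFpEF models. The paper also describes RNA sequencing of hearts taken hours after a single dose of vehicle, and the titles do not give the length of dosing. Whether the controls were dosed alike cannot be told from the titles. Diet and constriction came together in the model group, so their parts in any difference cannot be told apart here.

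The proteasome degrades proteins that carry ubiquitin chains. Its core particle is a barrel of alpha and beta rings, and the catalytic sites sit on the beta subunits encoded by Psmb5, Psmb6 and Psmb7. A regulatory particle, made of a base with ATPases (Psmc genes) and a lid, binds ubiquitin chains, removes them and unfolds the substrate. Interferon-gamma induces Psmb8, Psmb9 and Psmb10, which replace Psmb5, Psmb6 and Psmb7 in newly built immunoproteasomes, and induces the activator subunits Psme1 and Psme2. In heart muscle, where cells are long-lived and sarcomere proteins turn over continuously, the proteasome is the main route for removal of damaged and unneeded proteins.

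The members fell into 12 roles. There were 7 alpha ring genes (Psma1 to Psma7), 7 constitutive beta ring genes (Psmb1 to Psmb7), 3 inducible beta genes (Psmb8, Psmb9, Psmb10), 6 ATPases of the base (Psmc1 to Psmc6), 3 other base subunits (Psmd1, Psmd2, Psmd4), 8 lid subunits (Psmd3, Psmd6, Psmd7, Psmd8, Psmd11 to Psmd14) and 5 activator genes (Psme1, Psme2, Psme2b, Psme3, Psme4). Genes that are no subunit of the finished particle were kept apart. These were the base assembly chaperones Psmd5, Psmd9 and Psmd10, the core assembly chaperones Psmg1 to Psmg4 and the inhibitor Psmf1. Psma8 is a testis variant of the alpha ring, and Psmc3ip only shares the letters: it encodes a meiotic recombination factor.

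Psmb5 and Psmb6 are both constitutive subunits whose promoter holds the letters TGACNNNGC, the core of the antioxidant response element to which NFE2L1 and NFE2L2 can bind. The sequences are shown because the list of pathway genes below includes both factors. They run 5′ to 3′ on the strand of the gene, in RefSeq's windows on GRCm38.p6, up to the RefSeq start or the first annotated exon, with the matched letters in capitals. Psmb5 is shown at chr14:54618023-54618245 (minus strand) and Psmb6 at chr11:70525107-70525356 (plus strand).
Psmb5: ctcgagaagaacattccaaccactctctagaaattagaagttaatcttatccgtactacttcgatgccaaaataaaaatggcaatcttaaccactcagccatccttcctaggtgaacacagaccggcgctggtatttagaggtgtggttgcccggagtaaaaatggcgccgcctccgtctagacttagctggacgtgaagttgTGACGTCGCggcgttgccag
Psmb6: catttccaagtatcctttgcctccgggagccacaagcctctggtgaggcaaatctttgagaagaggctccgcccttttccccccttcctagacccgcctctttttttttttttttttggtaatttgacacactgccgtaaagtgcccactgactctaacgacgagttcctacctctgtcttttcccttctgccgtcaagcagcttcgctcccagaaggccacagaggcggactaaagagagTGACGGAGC
RefSeq promoter windows (250 bases before to 50 bases after the start) were found for 41 of 49 members, and Psmb7 was among the 8 without one. The letters TGACNNNGC on either strand occurred in 12.4% of all 32851 windows, in 14.3% of those of the genes tested and in 13.6% of the 44 windows of members, in the genes Psmb5, Psmb6, Psmc6, Psmd9, Psmd12 and Psme4. The palindromic gamma-activated site TTCNNNGAA occurred in 8.30% of all windows, 6.81% of those of the genes tested and 6.82% of those of members (Psmb8, Psmd2, Psmg1). In Psmb8 the match TTCCCAGAA lay at chr17:34198098-34198106, which is inside an annotated exon of the gene. An interferon-stimulated response element, written as GAAA, any 2 bases and GAAA, occurred in 3.44% of all windows, 3.06% of those of the genes tested and 11.4% of those of members (Psmb3, Psmd4, Psmd9, Psme1, Psmg4). The box CCAAT, searched on both strands, occurred in 37.4%, 37.2% and 31.8%. These matches describe letters in a window and were not tested as binding sites.

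Libraries held 34.2 to 53.7 M estimated counts per mouse, of which 12.6 to 21.1 M fell on the 13294 genes tested. The mitochondrial share of counts was 43.8% in control mouse 1, 44.0% in control mouse 2 and 46.4% in HFD+mTAC mouse 5, below the 49.5% to 52.7% of the other 7, and the deposited transcript lengths of all tested genes were shorter in the same 3 mice (median log2 deviation -0.09, -0.11 and -0.05). The cardiomyocyte markers Myh6, Actc1, Tnnt2, Tnni3 and Ryr2 summed to 72452 to 83802 TPM in controls and 66546 to 84114 in HFD+mTAC mice, so the labelled tissue was borne out by its defining genes. In the edgeR fit on counts, all 5 markers were lower in the model group, 0 were called after adjustment, and 2 were under 0.05 before it. The TPM sum of the 5 did not share this direction, with a median of 73607 in controls and 74462 in HFD+mTAC mice. Summed markers overlapped between the groups for leukocytes (186 to 307 against 225 to 269 TPM, with Adgre1 and Cd3e under the filter), endothelial cells (279 to 369 against 277 to 444), fibroblasts (607 to 875 against 568 to 788), smooth muscle and pericytes (378 to 511 against 354 to 602) and red blood cells (408 to 5402 against 499.9 to 5688). None of the 3 adipocyte markers passed the filter. In whole tissue, fewer cells of a type and less RNA per cell cannot be told apart.

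All 49 members together took 0.460% to 0.515% of the normalized counts of a mouse, and the groups overlapped. On the scale of CPM normalized by trimmed means (TMM), which is not corrected for length, the 31 genes of the core rings, base and lid lay within a 9.26-fold range. The lowest was Psma2 with a mean of 30.3 CPM over the 10 mice, the highest the ATPase gene Psmc3 with 281 CPM, and 27 of the 31 were within 2-fold of their median of 134 CPM. The typical member was well above the typical gene, with a median of 109 CPM against 20.7 CPM over all genes tested.

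Levels per length spread far more widely. In TPM renormalized over the genes tested, the same 31 genes spanned 153-fold, from 2.83 for Psma2 to 432 for Psmb6, and 16.1-fold without Psma2. Psma2, an alpha ring subunit, had a deposited effective length of 9353 to 13159 bases, although its longest transcript in the GENCODE annotation used here has 2911 bases. The mean deposited length exceeded the longest annotated transcript in 13 of 49 members (26.5%), against 47.8% of the 12814 tested genes with annotated transcripts. Among the 13 were Psmb10 (3719 against 1311 bases), Psmd7 (5533 against 1581) and Psma5 (2563 against 1239). For the same reads TPM is lower where the deposited length is longer, so an order of subunits by TPM is a property of these lengths as well as of the reads. Not all of the 13 were low, as Psma1 and Psma4 had 124 and 126 TPM.

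**Figure D1:**
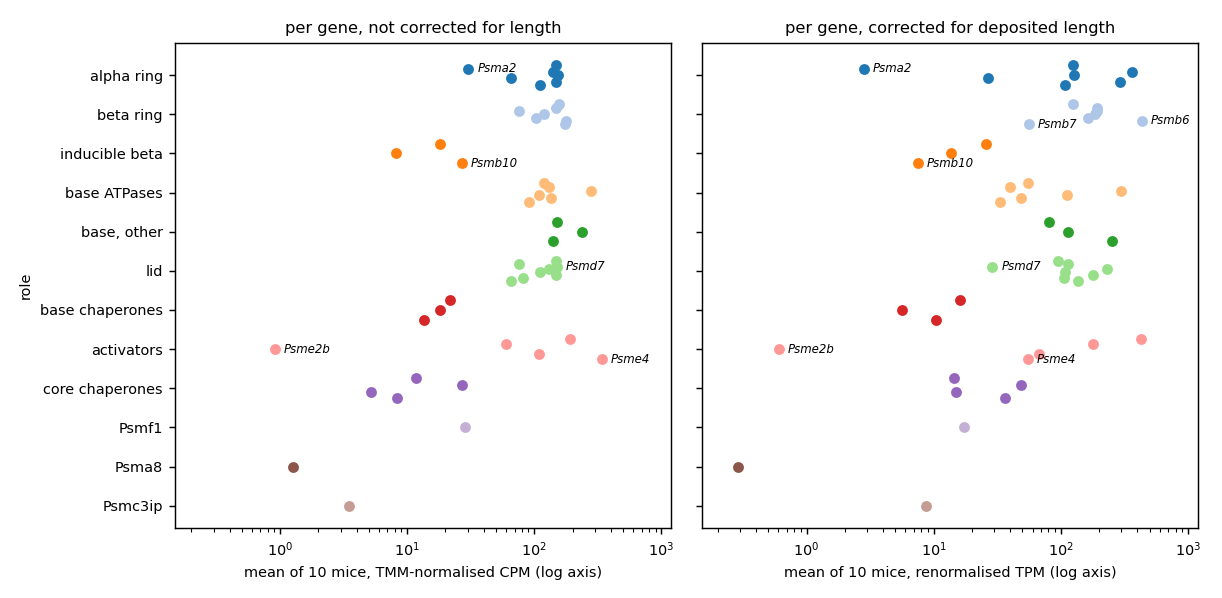
Mean level of each of the 49 members over the 10 mice, by role. The left panel gives TMM-normalized CPM and the right panel renormalized TPM, both on log axes. Psma2 sits at 30.3 CPM but 2.83 TPM, whereas the inducible beta genes, the chaperones, Psmf1, Psma8 and Psmc3ip lie to the left of most ring, base and lid genes on both scales.

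The inducible beta genes were at 8.18 (Psmb9), 18.0 (Psmb8) and 26.8 CPM (Psmb10), below every constitutive beta gene, of which the lowest was Psmb3 with 75.8 CPM. Assembly chaperones were also low, at 5.20 to 27.1 CPM for Psmg1 to Psmg4 and 13.6 to 21.5 CPM for Psmd5, Psmd9 and Psmd10. Psma8 and Psme2b were close to the limit of detection, at 1.26 and 0.905 CPM. Psme2b is a retrocopy of Psme2, so reads of the parent gene may be assigned to it and its value is uncertain.

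No member passed the test between HFD+mTAC and control mice. With edgeR's quasi-likelihood test on 5 against 5 mice, 0 of 49 members had an adjusted p under 0.05, and the smallest adjusted p was 0.565. Among all 13294 genes tested, 8 were called, or 0.0602%. At an unadjusted p under 0.05 the test gave 1 member (2.04%), Psmb7, against 8.27% of all genes tested. Groups did not overlap in CPM for 1 member (2.04%), Psmc2, against 1.96% of all genes. DESeq2 called 0 members as well, with 1 at an unadjusted p under 0.05, although it called 120 genes in all.

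The estimates were narrow. The median log2 fold change of the members was -0.03, with 21 higher and 28 lower in HFD+mTAC mice, against a median of 0.00 and 50.4% higher over all genes tested. This direction turned on the TPM scale, log2(TPM + 1) in limma, where 32 members were higher and 17 lower with a median of 0.03. Over all genes tested the median on that scale was 0.02, with 7430 of 13294 genes higher. The median absolute log2 fold change was 0.0749 for members and 0.122 for all genes, and the median standard error of a member was 0.0928. The 95% confidence interval lay inside a 1.5-fold change in either direction for 46 of 49 members (93.9%), against 63.3% of all genes tested. The 3 members with wider intervals were Psmb9, Psme2b and Psma8, all of low abundance. Within groups, the median standard deviation of log2 CPM was 0.128 for members and 0.2296 for all genes, and members were the more abundant, as given above.

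**Figure D2:**
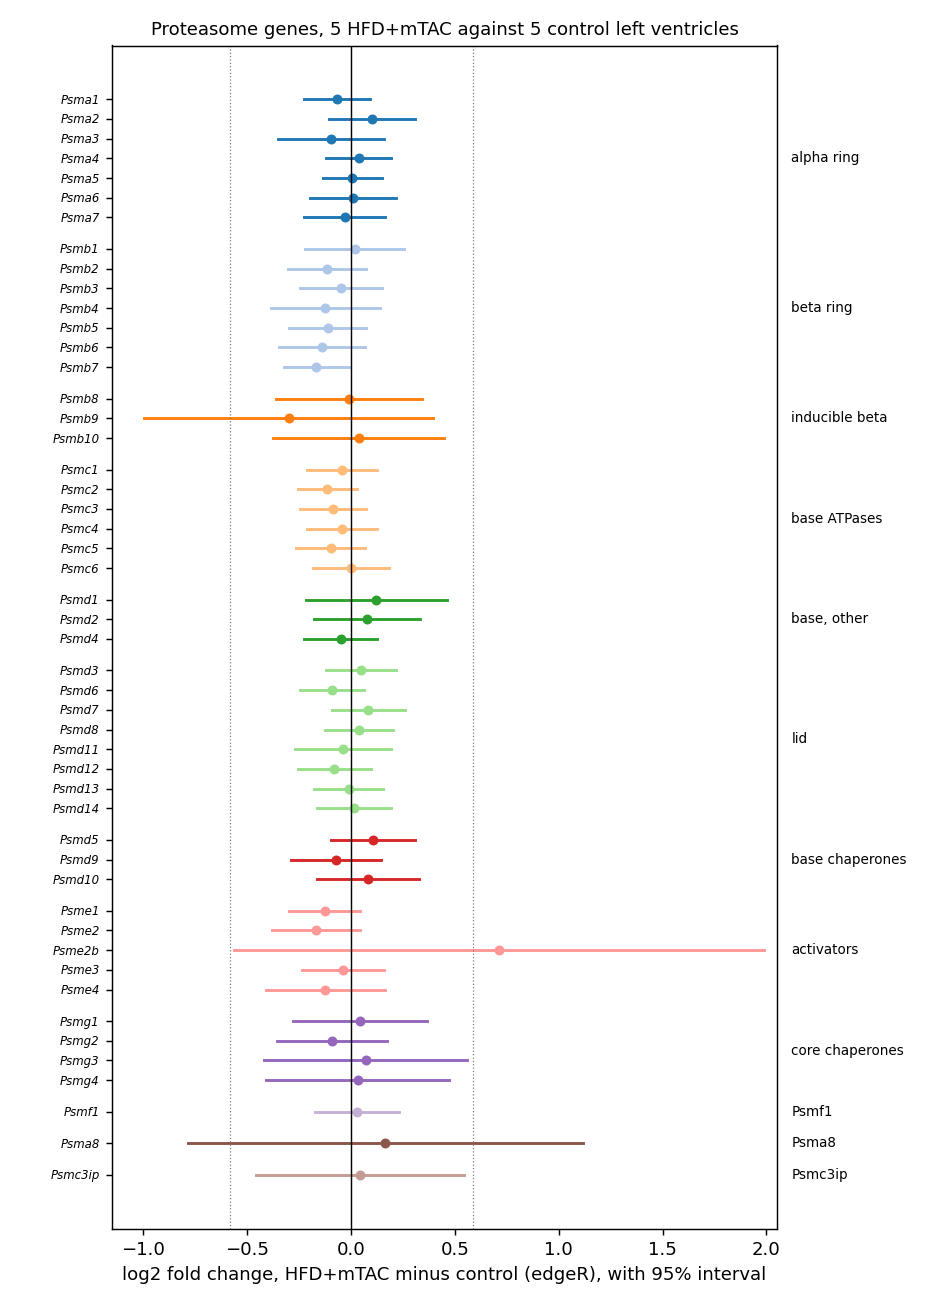
Log2 fold change of each member, HFD+mTAC minus control, with its 95% interval from the edgeR fit, grouped by role. Dotted lines mark a 1.5-fold change. Every interval but that of Psmb7 includes 0, and only Psmb9, Psme2b and Psma8 reach past a dotted line.

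In the core rings, the 7 alpha genes were split, with 4 higher and 3 lower, and log2 fold changes from -0.10 (Psma3) to 0.10 (Psma2). Psma2 stood at 31.8, 28.7, 31.0, 25.8 and 29.0 CPM in control mice 1 to 5 and at 33.4, 28.3, 33.0, 27.9 and 34.3 CPM in HFD+mTAC mice 1 to 5. Of the HFD+mTAC mice, 3 were above all controls and the other two lay among them (log2 fold change 0.10 with a standard error of 0.10, adjusted p = 0.849). Of the 7 constitutive beta genes, 6 had a lower mean in HFD+mTAC mice and 1 (Psmb1) a higher one, with a median log2 fold change of -0.12 and no adjusted p under 0.565. On the TPM scale 4 were lower and 3 higher, with a median of -0.02.

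The catalytic subunits of the beta ring were followed in each mouse. Psmb7 (chr2:38588036-38644087) encodes the subunit with trypsin-like activity. Its CPM was 187, 196, 174, 183 and 178 in control mice 1 to 5 and 151, 163, 173, 154 and 175 in HFD+mTAC mice 1 to 5. Among HFD+mTAC mice, 4 were below all controls and mouse 5 was above the lowest control. Control mice averaged 183 ± 8.60 CPM and the model group 163 ± 10.6 CPM (SD, n = 5 each). The log2 fold change was -0.17 with a standard error of 0.07 (edgeR, unadjusted p = 0.0391, adjusted p = 0.565). This was the smallest p of any member, and it did not pass the adjustment.

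Psmb5 (chr14:54614119-54618022) encodes the chymotrypsin-like subunit, the main target of clinical proteasome inhibitors. Control mice 1 to 5 had 113, 109, 99.6, 97.9 and 118 CPM, and HFD+mTAC mice 1 to 5 had 86.5, 94.4, 105, 106 and 104 CPM. HFD+mTAC mice 1 and 2 were below all controls and the other three lay among them (log2 fold change -0.11 with a standard error of 0.09, adjusted p = 0.791, and 0.0037 with the opposite sign on the TPM scale). Psmb6 (chr11:70525367-70527858), the caspase-like subunit, had 191, 191, 171, 168 and 216 CPM in controls and 145, 169, 191, 178 and 167 CPM in HFD+mTAC mice. HFD+mTAC mice 1 and 5 were below all controls and the other three lay among them (log2 fold change -0.14 with a standard error of 0.09, adjusted p = 0.768, and 0.0091 on the TPM scale).

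**Figure D3:**
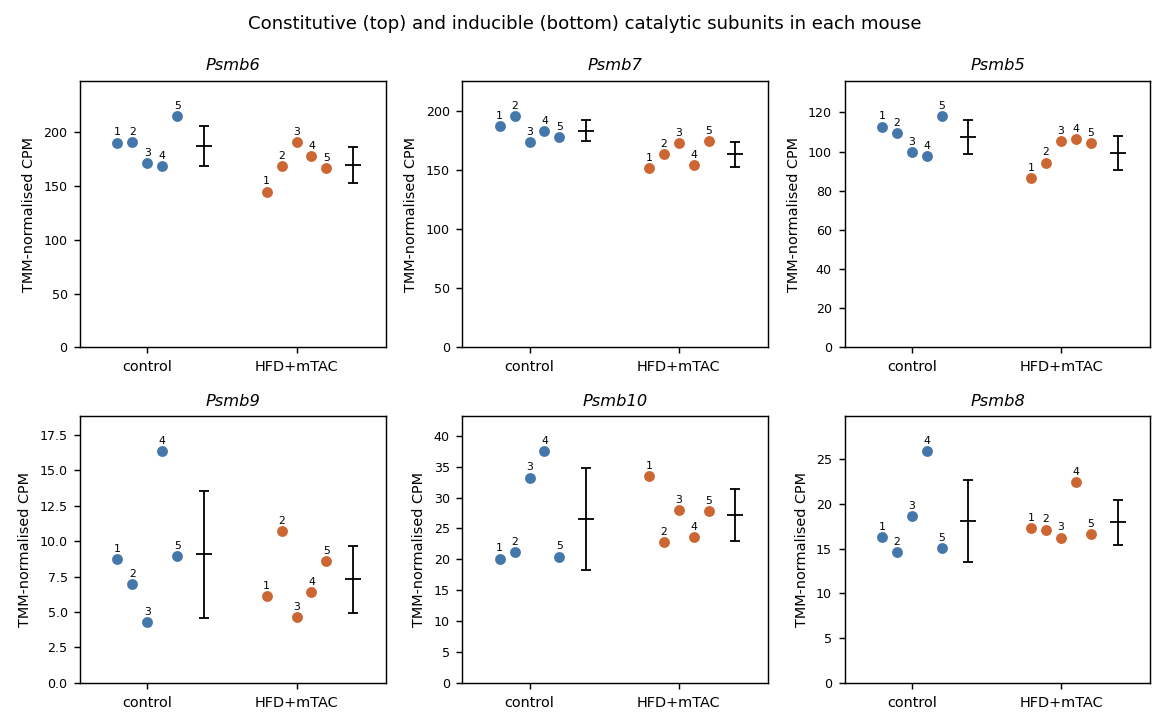
TMM-normalized CPM of the 3 constitutive catalytic subunits (top) and the 3 inducible subunits below the one each replaces, with 1 point per mouse, numbered 1 to 5 within its group, and the mean ± SD beside the points. HFD+mTAC mice overlap the controls in every panel, and control mouse 4 is the highest of all 10 mice in the 3 lower panels.

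None of the inducible subunits passed the test either. Psmb8 (chr17:34197721-34201454) had 16.3, 14.6, 18.6, 25.9 and 15.0 CPM in control mice 1 to 5 and 17.3, 17.1, 16.2, 22.4 and 16.6 CPM in HFD+mTAC mice 1 to 5. All HFD+mTAC mice lay within the range of the controls (log2 fold change -0.01 with a standard error of 0.16, adjusted p = 0.994). Psmb9 (chr17:34181987-34187764), the least abundant of the 3, had 8.74, 6.99, 4.26, 16.4 and 8.97 CPM in controls and 6.15, 10.7, 4.62, 6.42 and 8.60 CPM in HFD+mTAC mice. Its interval was the widest of the inducible genes, from a fold of 0.501 to 1.31 around a log2 fold change of -0.30 (adjusted p = 0.872). Psmb10 (chr8:105935735-105938444) had 20.1, 21.1, 33.2, 37.5 and 20.5 CPM in controls and 33.5, 22.8, 28.0, 23.6 and 27.8 CPM in HFD+mTAC mice. HFD+mTAC mice again lay within the controls' range (log2 fold change 0.04 with a standard error of 0.19, adjusted p = 0.981). On the TPM scale the signs of Psmb8 and Psmb9 turned, to 0.05 and 0.13.

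The RNA of each inducible subunit was compared with that of the constitutive subunit it replaces, as a ratio of TPM within each mouse. In whole tissue this ratio does not measure exchange in assembled particles, and the RNAs may come from different cell types. Psmb8 was 15.7 ± 5.64% of Psmb5 in controls and 15.6 ± 1.91% in HFD+mTAC mice (SD, n = 5 each; two-sided exact permutation test of the log2 ratio, p = 0.865). Psmb9 was 3.24 ± 2.25% and 3.24 ± 1.42% of Psmb6 (exact permutation p = 0.817). Psmb10 was 12.8 ± 2.88% and 14.2 ± 2.501% of Psmb7 (exact permutation p = 0.421). Adjusted over the 3 ratios each p was 0.865, the smallest p this design allows is 0.00794, and the groups overlapped in every ratio.

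**Figure D4:**
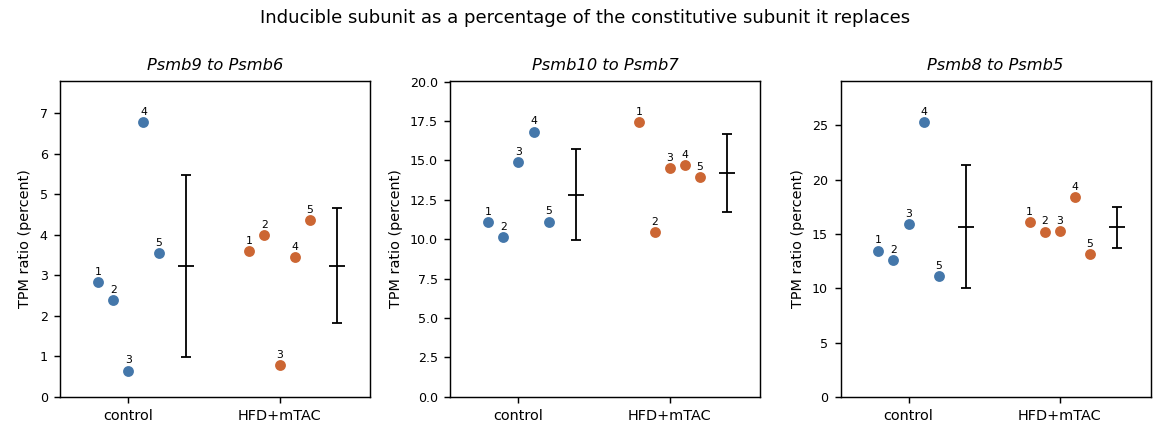
TPM of each inducible subunit as a percentage of the constitutive subunit it replaces, with 1 point per mouse (numbered within its group) and the mean ± SD. Values run from 11.2% to 25.3% for Psmb8 to Psmb5, from 0.645% to 6.78% for Psmb9 to Psmb6 and from 10.1% to 17.4% for Psmb10 to Psmb7, and the groups overlap in all 3 panels.

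The ratio of Psmb9 to Psmb6 was lowest in control mouse 3 (0.645%) and HFD+mTAC mouse 3 (0.783%). In these mice the deposited length of Psmb9 was 1445 and 1384 bases, against 440 to 750 bases in the other 8, and their CPM (4.26 and 4.62) was the lowest as well. Psmb10 relative to Psmb7 rests on 2 genes whose deposited lengths exceed their longest annotated transcripts.

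Control mouse 4 was the highest of the 10 mice in all 3 inducible subunits. It was the highest in 10 of 49 members (20.4%), Psme1 among them, against 6.79% of all genes tested. It was also the lowest in 7 members (14.3%), against 8.18% of all genes tested. Control mouse 5 was likewise the highest in 10 members (20.4%), against 16.4% of all genes tested. The Psmb9 level of control mouse 4, 16.4 CPM, compared with a median of 6.99 and a maximum of 10.7 CPM in the other 9 mice. Of 13 genes listed for class I antigen processing, control mouse 4 was the highest in 7, namely B2m, Tap1, Tap2, Erap1, Nlrc5, Irf1 and H2-K1. Tap1, which pumps proteasome products into the endoplasmic reticulum, stood at 46.5 CPM in this mouse and at 13.4 to 26.0 CPM in the others. Irf1, a transcription factor induced by interferon-gamma, stood at 78.8 CPM against 17.7 to 48.3 CPM, and Nlrc5, the transactivator of class I genes, at 17.3 against 6.20 to 11.02 CPM. Of the 7 leukocyte markers tested, control mouse 4 was above the median of the other mice in 3 (Ptprc, Cd68 and Cd79a), below it in 4 and the highest in 0. Cd68 stood at 16.7 CPM against a median of 15.0, and Cd79a at 2.115 against 1.23. Their part in the values of this mouse was not tested.

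Without control mouse 4 the log2 fold change of Psmb8 was 0.15, that of Psmb9 0.02 and that of Psmb10 0.19, and none of these was called. Psmb8, Psmb9, Tap1 and Tap2 are neighbours on chromosome 17.

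**Figure D5:**
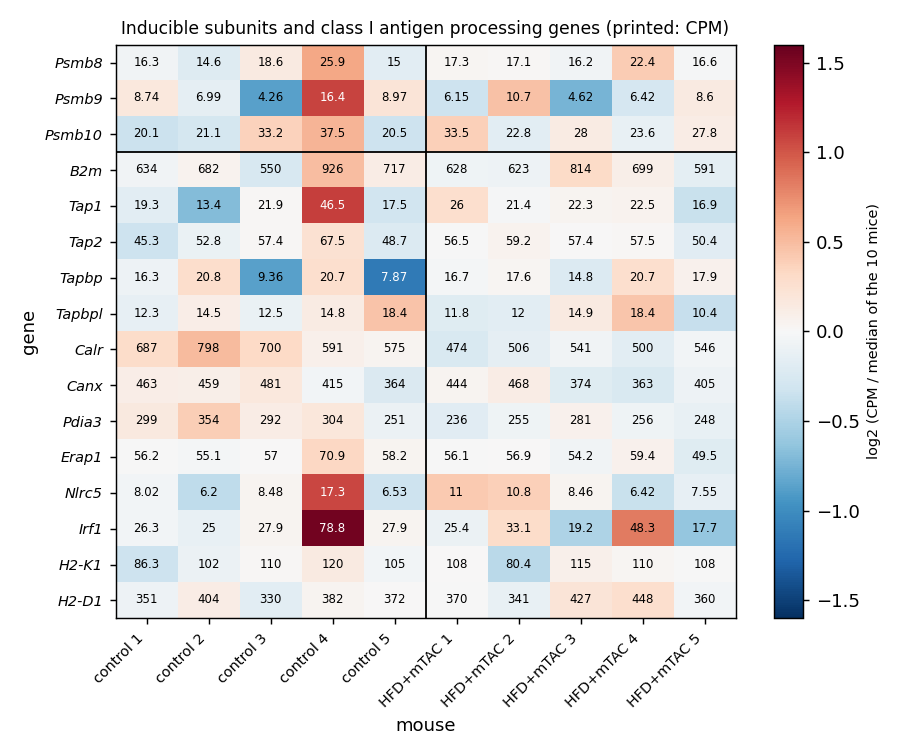
Inducible subunits (top 3 lines) and 13 class I antigen processing genes in the 10 mice. Colour gives log2 of CPM over the median of the 10 mice, and the printed number is CPM. The column of control mouse 4 is the highest in all 3 inducible subunits and in 7 of the 13 class I genes, including Tap1, Irf1 and Nlrc5.

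In the regulatory particle, all 6 ATPase genes of the base had a lower mean CPM in HFD+mTAC mice, with log2 fold changes from -0.11 (Psmc2) to -0.00 (Psmc6), and 0 passed the test. On the TPM scale 5 were lower and 1 higher. Psmc2 (chr5:21785283-21803787) was the member whose groups did not overlap. Control mice 1 to 5 had 144, 134, 138, 131.0 and 134 CPM and HFD+mTAC mice 1 to 5 had 124, 129, 128, 118 and 130.8 CPM. The gap between the groups was the difference between 131.0 CPM in control mouse 4 and 130.8 CPM in HFD+mTAC mouse 5 (log2 fold change -0.11 with a standard error of 0.07, adjusted p = 0.705). Psmc3, the most abundant ATPase gene, had 289 ± 16.4 CPM in controls and 272 ± 15.5 CPM in HFD+mTAC mice (SD, n = 5 each).

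The other base subunits and the lid were split in direction in CPM, and 0 passed the test. Of the scaffold proteins Psmd1 and Psmd2 and the ubiquitin receptor Psmd4, 2 were higher and 1 lower, from -0.05 to 0.12. Of the 8 lid genes 4 were higher and 4 lower, from -0.09 (Psmd6) to 0.08 (Psmd7). On the TPM scale all 3 other base subunits were higher, with a median log2 fold change of 0.180. There 6 lid genes were higher and 2 lower, with a median of 0.145. Psmd7, a structural partner of the deubiquitinase subunit Psmd14, had 144, 166, 151, 132 and 134 CPM in controls and 165, 159, 154, 146 and 145 CPM in HFD+mTAC mice. All HFD+mTAC mice lay within the range of the controls (adjusted p = 0.855). Psmd14 itself, which cleaves the ubiquitin chain off the substrate, had 65.6 ± 4.65 and 66.1 ± 5.85 CPM (SD, n = 5 each; log2 fold change 0.01).

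Activators cap the core in place of the regulatory particle. Psme1 and Psme2 (chr14:55578123-55581529 and chr14:55587441-55591113) form 1 ring together and lie close to each other in the genome. Psme1 had 192, 183, 209, 223 and 199 CPM in control mice 1 to 5 and 177, 202, 191, 175 and 177 CPM in HFD+mTAC mice 1 to 5. HFD+mTAC mice 1, 4 and 5 were below all controls and the other two among them (log2 fold change -0.13 with a standard error of 0.08, adjusted p = 0.732). Psme2 had 68.4, 58.1, 55.5, 63.0 and 71.3 CPM in controls and 48.0, 57.4, 60.5, 62.7 and 52.5 CPM in HFD+mTAC mice, where mice 1 and 5 were below all controls (log2 fold change -0.17 with a standard error of 0.10, adjusted p = 0.705).

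Psme4, the single-chain activator and by CPM the most abundant member, had 377, 359, 369, 355 and 315 CPM in controls and 403, 391, 274, 246 and 314 CPM in HFD+mTAC mice. HFD+mTAC mice were on both sides of the controls, 2 above and 3 below all of them, and the mean was 355 ± 23.9 against 326 ± 69.7 CPM (SD, n = 5 each; adjusted p = 0.871). Psme2b had 1.63, 0.473, 0.686, 0.0705 and 0.472 CPM in controls and 0.705, 1.33, 1.46, 1.84 and 0.368 CPM in HFD+mTAC mice, from 1.31 to 34.3 estimated counts. Its log2 fold change of 0.71 had a standard error of 0.59 (adjusted p = 0.809) and depended on single libraries: it was 0.45 to 1.36 when each mouse was left out in turn and 1.63 when control mice 1 and 2 and HFD+mTAC mouse 5 were left out.

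Psme3, which forms the nuclear activator, showed how far the deposited lengths can move a value. Its CPM was 118, 116, 104, 117 and 95.5 in control mice 1 to 5 and 116, 108, 106, 90.1 and 115 in HFD+mTAC mice 1 to 5, a 1.30-fold range (log2 fold change -0.04, adjusted p = 0.947). Its TPM was 39.7, 96.2, 39.6, 109 and 15.5 in controls and 96.1, 34.6, 96.2, 61.8 and 81.1 in HFD+mTAC mice, a 7.05-fold range. The deposited length was 1075 bases in control mouse 4 and 6161 bases in control mouse 5. On the TPM scale, log2(TPM + 1) in limma, the log2 fold change was 0.51 with the opposite sign (adjusted p = 0.891). Lengths varied more than 2-fold among the 10 mice in 6 members (12.2%: Psmb9, Psmc3, Psmd1, Psmd11, Psme2 and Psme3), against 27.0% of all genes tested.

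Among the assembly factors, Psmd5, a chaperone of the base, had 19.6, 20.7, 21.5, 22.6 and 19.3 CPM in control mice 1 to 5 and 22.6, 23.2, 23.8, 22.7 and 19.3 CPM in HFD+mTAC mice 1 to 5. HFD+mTAC mice 2, 3 and 4 were above all controls and mouse 5 was as low as the lowest control (log2 fold change 0.10 with a standard error of 0.09, adjusted p = 0.833). Of Psmg1 to Psmg4, 3 were higher and 1 lower, from -0.09 (Psmg2) to 0.07 (Psmg3). The inhibitor Psmf1 had 28.5 ± 2.79 and 29.0 ± 1.85 CPM (SD, n = 5 each), Psma8 1.19 ± 0.231 and 1.33 ± 0.919, and Psmc3ip 3.42 ± 1.10 and 3.52 ± 0.388.

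Mice differed among themselves in the whole set. The median log2 deviation of the 31 ring, base and lid genes from their means was between -0.12 in HFD+mTAC mouse 1 and 0.09 in control mouse 2, and the groups overlapped. HFD+mTAC mouse 1 was the lowest of the 10 mice in 19 of 49 members (38.8%), against 12.4% of all genes tested. Without this mouse the median log2 fold change of the members was -0.00, with 24 of 49 higher.

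Genes that act with the proteasome were read from the same fit. Of 51 genes in 6 lists, 50 were tested (Paaf1 was not), 0 were called, and 6 had an unadjusted p under 0.05 (12%, against 8.27% of all genes tested). Of the 50, 17 had a higher and 33 a lower mean in HFD+mTAC mice, and groups did not overlap in 2, Akirin2 and Calr, against 1.96% of all genes. By list, higher and lower genes numbered 2 and 6 for proteasome-associated proteins, 2 and 6 for shuttle factors and unfoldase, 2 and 2 for transcriptional control, 1 and 3 for ubiquitin and its activation, 7 and 6 for muscle ubiquitin ligases, and 3 and 10 for class I antigen processing. The last split turned without control mouse 4, with 8 class I genes higher and 5 lower. On the TPM scale with all mice the counts were also 8 and 5, over partly different genes. Canx was higher only on the TPM scale (log2 fold change 0.037), where H2-D1 was lower (-0.016). The cause of the split was not tested.

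Akirin2 (chr4:34550937-34566908), which brings the proteasome into the nucleus, had 64.2, 59.99, 56.7, 56.3 and 66.2 CPM in control mice 1 to 5 and 42.0, 48.0, 47.5, 55.9 and 46.0 CPM in HFD+mTAC mice 1 to 5. All HFD+mTAC mice were below all controls, with a log2 fold change of -0.34 and a standard error of 0.09 (edgeR, adjusted p = 0.261). DESeq2 called this gene (adjusted p = 0.0373). Pomp, the chaperone that completes the core particle, had 69.5 ± 11.2 CPM in controls and 58.7 ± 10.1 in HFD+mTAC mice (SD, n = 5 each; log2 fold change -0.24, adjusted p = 0.693).

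Calr, the calreticulin chaperone of the endoplasmic reticulum that also serves class I loading, had 687, 798, 700.3, 590.9 and 575 CPM in controls and 474, 506, 541, 499.9 and 546 CPM in HFD+mTAC mice. The groups did not overlap (log2 fold change -0.39 with a standard error of 0.10, edgeR adjusted p = 0.261), and DESeq2 called the gene (adjusted p = 0.0309). Pdia3, its partner disulfide isomerase, had 300 ± 36.7 and 255 ± 16.6 CPM (SD, n = 5 each; log2 fold change -0.23, adjusted p = 0.524). The log2 fold changes of the other listed class I genes ran from 0.22 for Tapbp to -0.37 for Irf1, and that of Irf1 was 0.10 without control mouse 4.

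Nfe2l1 (chr11:96817414-96829968) encodes the factor that restores proteasome gene expression when proteasome activity falls. It had 581, 628, 788, 671 and 516 CPM in control mice 1 to 5 and 987, 904, 686, 648 and 849 CPM in HFD+mTAC mice 1 to 5. Among HFD+mTAC mice, 3 were above all controls and mice 3 and 4 lay among them (log2 fold change 0.36 with a standard error of 0.14, unadjusted p = 0.0243, adjusted p = 0.504 in edgeR). HFD+mTAC mouse 1 had the highest Nfe2l1 value and the lowest values of Psmb5, Psmb6 and Psmb7. As given above, this mouse was the lowest in 19 of 49 members (38.8%), against 12.4% of all genes tested. It was also the highest in 3 members (6.12%: Psmd1, Psmd2 and Psme4), against 11.8% of all genes tested. HFD+mTAC mice 2 and 5, the next highest in Nfe2l1, were the lowest in 1 and 0 members, against 9.28% and 7.06% of all genes tested. HFD+mTAC mouse 4, at 648 CPM of Nfe2l1, was the lowest in 10 members (20.4%), against 13.1%. A relation between Nfe2l1 and the members across mice was not tested. Nfe2l2, the related antioxidant factor, had 133 ± 14.7 and 124 ± 11.7 CPM (SD, n = 5 each; adjusted p = 0.843).

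Among the genes of ubiquitin and its activation 0 passed the test. Ubb, a polyubiquitin gene, had 638, 793, 776, 791 and 855 CPM in controls and 775, 904, 1016, 967 and 977 CPM in HFD+mTAC mice, of which 4 were above all controls (log2 fold change 0.27, unadjusted p = 0.0193, adjusted p = 0.475). Rps27a, which encodes ubiquitin fused to a ribosomal protein and has many processed copies that could share its reads, had 264 ± 39.6 and 243 ± 48.9 CPM (SD, n = 5 each; log2 fold change -0.12, adjusted p = 0.891, and -0.22 to -0.04 when each mouse was left out in turn). Of the shuttle factors, Zfand5, which stimulates the proteasome in muscle, had 195 ± 3.02 and 169.6 ± 18.1 CPM (SD, n = 5 each; adjusted p = 0.532), and Ubqln1 had 102 ± 12.8 and 89.1 ± 7.68 CPM (adjusted p = 0.643).

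Some muscle ubiquitin ligases mark sarcomere proteins in atrophy, and 0 of the 13 ligases listed passed the test. Fbxo32 (atrogin) had 172, 156, 185, 157 and 139 CPM in controls and 185, 164, 152, 126 and 199 CPM in HFD+mTAC mice (log2 fold change 0.03, adjusted p = 0.967), with a sign that turned on the TPM scale. Trim63, which encodes a MuRF ligase of the sarcomere, had 214 ± 37.2 and 239 ± 54.5 CPM (SD, n = 5 each; log2 fold change 0.15, adjusted p = 0.865, and 0.06 to 0.26 when each mouse was left out in turn). The smallest p of this list belonged to Nedd4 (589.04 ± 54.4 and 654 ± 89.1 CPM, adjusted p = 0.773) and Fbxo30 (38.7 ± 1.17 and 34.6 ± 6.57 CPM, adjusted p = 0.780).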

How the data were processed

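Whole left ventricle RNA of 10 mice was sequenced with a stranded polyA library kit. The study's methods give paired-end reads of 50 bases and the labels single-end reads of 100 bases. Transcripts were quantified by the authors with salmon (version 1.6.0 in the submitters' processing notes, which name a human build; the methods name mouse GENCODE on GRCm38) and summed per gene with tximport. The authors deposited expected counts, not normalized, of which 20.1% were not whole, TPM values, and average effective transcript lengths in bases.

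Counts were rounded and tested in edgeR 4.0.16 (R 4.3.3; TMM factors, quasi-likelihood test, no covariate, Benjamini-Hochberg adjustment over all genes tested, threshold 0.05). Genes tested were protein-coding by GENCODE M21, not mitochondrially encoded, with at least 1 count in 9 of 10 mice (13294 of 29564). Biotypes and coordinates (GRCm38) were matched by symbol, and 835 symbols did not match. TPM was renormalized over these genes. Standard errors and intervals come from the same fit. Alternatives used DESeq2 1.42.0 and limma 3.58.1. The 3 ratios were compared by two-sided exact permutation over 252 arrangements. The code was checked on simulated counts.

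Mice were grouped by the labels' disease state and numbered in accession order, and the labels give no batch. Libraries of a group differed by a chi-square per degree of freedom of at least 12.9, so none was a repeat. The members and gene lists were chosen with earlier results of these data known. Values in every mouse were given for Psmb5 to Psmb10, Psme1 to Psme4 and the 4 members higher and 4 lower with the smallest p. In addition, the 2 genes of each list with the smallest p and Nfe2l1, Pomp, Fbxo32 and Trim63 were named. Other genes were named after their values were seen. Genes of the lists that are not reported here do not enter their counts.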

Additional observations from a re-analysis of the deposited data

Results flagged for a closer look

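Values far from the rest of their group by Dixon's criterion were looked for in 86 sets of 5 mice (named members, named pathway genes, the class I list and the 3 ratios), and 8 were found. Chance alone gives about 1 in 20 sets. Among members, Psmb8 was highest in HFD+mTAC mouse 4 at 22.4 CPM, and Psmd5 was lowest in HFD+mTAC mouse 5 at 19.3 CPM. The log2 ratio of Psmb9 to Psmb6 was lowest in HFD+mTAC mouse 3 at -7.00. In control mouse 4, Tap1 (46.5 CPM), Erap1 (70.9 CPM), Nlrc5 (17.3 CPM) and Irf1 (78.8 CPM) were each the highest of their group. H2-K1 was lowest in HFD+mTAC mouse 2 at 80.4 CPM. These genes share regulators and mice, so the 8 sets are not independent of each other.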

How the results depend on the processing

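In the reported fit and 21 alternatives, 0 of 49 members were called, and the smallest adjusted p of a member in any of them was 0.368. Of 315 alternative values for the 15 named members, 289 kept their sign and 26 turned, none past the threshold. The cause was not tested. On limma's log2(TPM + 1) the log2 fold changes were 0.0037 (Psmb5), 0.0091 (Psmb6), 0.048 (Psmb8), 0.13 (Psmb9), 0.029 (Psme1), 0.51 (Psme3) and -0.10 (Fbxo32), and the members' median moved to 0.032. With log2(TPM + 0.1) they were 0.0037, 0.0091, 0.052, 0.15, 0.030, 0.53 and -0.12, with a median of 0.032. With lengths as an offset, Psmb9 was at 0.0072, Psmb10 at -0.044, Psme3 at 0.26 and Fbxo32 at -0.15. Leaving out each mouse in turn gave -0.10 to 0.15 for Psmb8, -0.48 to 0.019 for Psmb9, -0.054 to 0.19 for Psmb10, -0.086 to 0.015 for Psme3, -0.042 to 0.11 for Fbxo32, and -0.05 to -0.00 for the members' median. Of the 29 named genes, 24 kept their sign whichever mouse was left out, and in 12 of these the value moved by over 1.5 times (Psmb5, Psmb6, Psme4, Psme2b, Psma2, Psmd7, Ubqln1, Nedd4, Fbxo30, Nfe2l2, Rps27a and Trim63). The log2 ratio differences ran from -0.058 to 0.24 (Psmb8 to Psmb5), -0.36 to 0.60 (Psmb9 to Psmb6) and 0.08 to 0.26 (Psmb10 to Psmb7), and with CPM the second was -0.10. Leaving out control mice 1 and 2 and HFD+mTAC mouse 5 together, an alternative chosen after seeing the data, left 0 members called (smallest adjusted p = 0.874 in edgeR) with Psmb10 at -0.17, Fbxo32 at -0.028, and ratio differences of -0.027 (Psmb8 to Psmb5) and -0.0039 (Psmb10 to Psmb7). DESeq2 called 2 pathway genes, Calr (-0.39) and Akirin2 (-0.35), among the 120 genes it called of 13294 tested. No paired analysis was possible because the labels give the 2 groups no shared replicate numbers. Genes near 1 CPM (Psma8, Psme2b) are limited by depth.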

Other observations

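Control mouse 4 was also the highest of the 10 mice in 4 interferon-gamma induced genes that were chosen after their values were seen and were not tested. Gbp2, a guanylate-binding protein, stood at 117 CPM in this mouse and at 43.1 to 62.4 CPM in the other 9. The immunity-related GTPase Igtp stood at 82.3 CPM against 17.6 to 38.8 CPM, and its relative Iigp1 at 256 CPM against 41.1 to 116 CPM. Cd274, which encodes a PD-L checkpoint ligand, stood at 88.6 CPM against 19.0 to 31.4 CPM. The second highest Psmb10 value among controls belonged to control mouse 3 (33.2 CPM), in which Psmb9 was the lowest of all mice (4.26 CPM), so the inducible subunits did not follow one order across mice.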
